A study of Caenorhabditis elegans with 4 samples.

Results

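The genes described are 10 digestive and lysosomal proteases of Caenorhabditis elegans, 6 of the aspartyl family (asp-1 to asp-6) and 4 of the cathepsin B family (cpr-1, cpr-4, cpr-5 and cpr-6). They were chosen by name, and each symbol matched 1 WormBase identifier among the 20182 features of the count table. All 10 passed the filter on low counts, as did 13086 features in all. Ribosome footprints were sequenced in 4 libraries of whole worms at the young adult stage, 2 of the wild-type strain N2 and 2 of a double mutant that carries cey-1 (rrr12) and cey-4 (ok858). Worms of both genotypes were grown alike on plates seeded with OP50 bacteria. The cey genes encode Y-box proteins, which bind messenger RNA. Whole animals were used, so a footprint count sums every tissue, the amount of a message and the ribosomes on it, and fewer cells of a type cannot be told apart from less RNA per cell.

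Aspartyl proteases of the pepsin and cathepsin D type cut proteins in acid surroundings with a pair of catalytic aspartates. Cathepsin B enzymes are papain-like and use a catalytic cysteine. In the worm both families act in the intestine, where ingested bacteria are digested and where lysosomes and lysosome-related gut granules are abundant, and both are made as inactive precursors that are loaded into the secretory pathway. The comparison asks which of their messages held a larger or smaller part of the ribosome footprints in the mutant.

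Each library held 22303560 to 32913332 counts, spread over 16172 to 16692 detected genes. The mutated genes were almost empty of footprints: cey-1 (WBGene00000472) had 71.8 ± 2.67 CPM in N2 and 3.99 ± 0.21 CPM in the mutant, and cey-4 (WBGene00000475) 265 ± 2.40 and 1.70 ± 0.24 CPM. CPM here is the normalised footprint count, the share of a library's counts after TMM scaling, levels are given as mean ± SD of 2 libraries, and log2FC stands for the log2 fold change of the mutant over N2, given with its standard error (SE). All tests named edgeR are its quasi-likelihood test with Benjamini-Hochberg adjustment over all genes tested and a threshold of 0.05. The labels do not say whether the libraries of a group came from separate cultures, so the p-values measure only the spread between these libraries, which may be technical.

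Among the cathepsin B genes, cpr-4 rose by 48.2%, cpr-1 fell by 16.6%, cpr-6 fell by 13.03%, and cpr-5 did not pass the test. Among the aspartyl genes, asp-1, asp-3, asp-4 and asp-6 rose by 9.57% to 21.5%, and asp-2 and asp-5 did not pass. But when libraries were centred on intestinal marker genes none of the 6 passed. Of these, 5 then had a log2FC below 0, asp-1 and asp-3 by less than their SE. In all, 5 of 10 members rose, 2 fell and 3 did not pass. Of all genes tested 17.4% rose and 16.6% fell, and of the 517 with a mean of at least 300 CPM, a level that each member exceeded, 20.9% rose and 32.3% fell. The median log2FC was 0.12 over the members, 0.01 over all tested genes and -0.06 over those 517. The libraries of the groups did not overlap for 9 of the 10 members, where 64.8% of all tested genes and 83.4% of the abundant ones did not overlap.

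**Figure D1:**
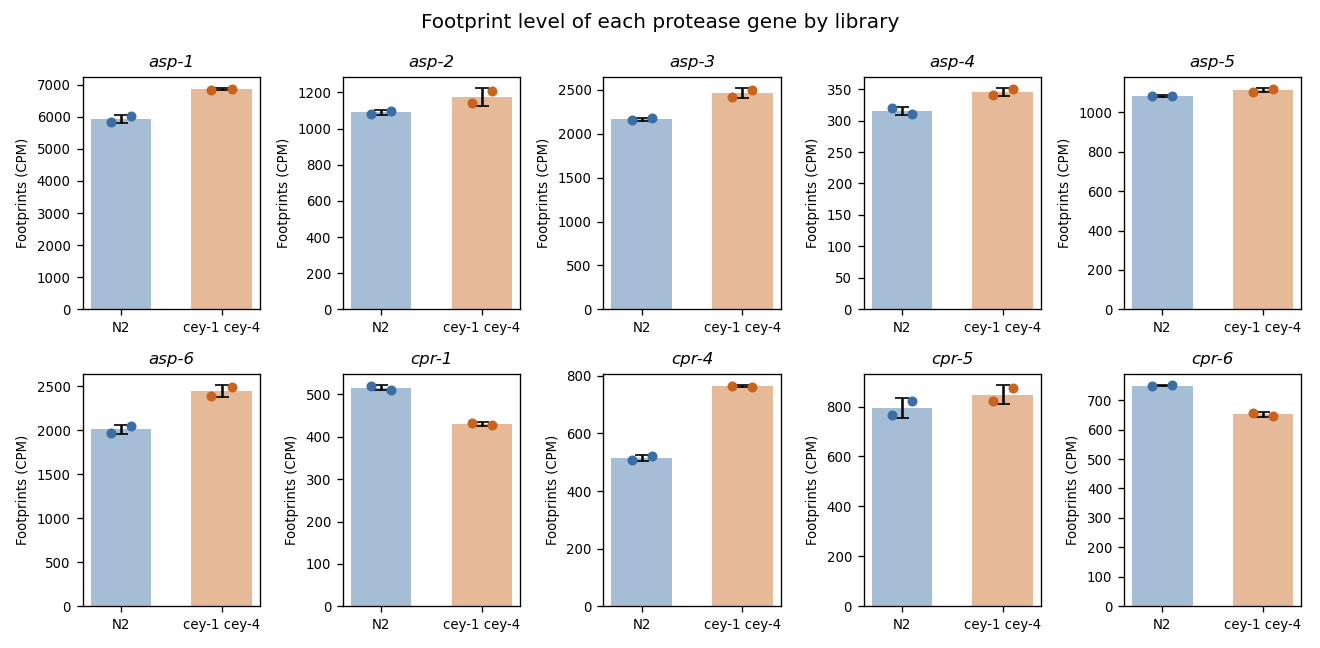
Footprint level of each of the 10 protease genes, in CPM on axes that start at 0. Bars are the mean of 2 libraries, error bars the SD and points the libraries. cpr-4 is the member with the widest relative gap between the groups, and cpr-5 is the member whose groups overlap.

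The secreted cathepsin B homologue gene cpr-4 (WBGene00000784), known in the worm for its part in signalling between irradiated and unexposed cells, had 509 and 522 CPM in the N2 libraries and 766 and 761 CPM in the mutant libraries. Both mutant libraries lay far above both N2 libraries, with 2 close values in each group. The log2FC was 0.57 (SE 0.045, edgeR adjusted p = 7.44e-18). Of the 517 abundant genes, 11 had a larger log2FC. cpr-4 is the only member that also passed a test against a fold change of 1.2 (edgeR adjusted p = 9.50e-09), a test that 6.18% of all tested genes passed as higher and 3.44% as lower. It passed as well when libraries were centred on intestinal markers, at a log2FC of 0.35 (SE 0.07, edgeR adjusted p = 3.74e-06).

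cpr-1 (WBGene00000781), which encodes a cysteine protease of the gut, had 519.6 and 511 CPM in N2 and 433 and 427 CPM in the mutant. Both mutant libraries were lower, by more than the gap within either group. The log2FC was -0.26 (SE 0.038, edgeR adjusted p = 2.75e-08), and 33 of the 517 abundant genes had a smaller one. cpr-6 (WBGene00000786), another cathepsin B gene, had 748 and 749.97 CPM in N2 and 657 and 646 CPM in the mutant. The N2 values were nearly equal and both lay above the mutant values. Its log2FC was -0.20 (SE 0.047, edgeR adjusted p = 3.39e-04). Neither cpr-1 nor cpr-6 passed the test against a fold change of 1.2 (edgeR adjusted p = 0.797 and 1). Centring on intestinal markers shifted the log2FC of the median gene by -0.22, and 40% of all tested genes then fell. With that shift the log2FC values were -0.48 for cpr-1 (edgeR adjusted p = 2.02e-13) and -0.42 for cpr-6 (edgeR adjusted p = 7.98e-08).

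For cpr-5 (WBGene00000785), also of the cathepsin B family, the N2 libraries had 765 and 823 CPM and the mutant libraries 821 and 874 CPM. The lower mutant value lay just below the higher N2 value, so the groups overlapped. The log2FC of 0.09 (SE 0.05) did not pass (edgeR adjusted p = 0.151), and without N2 replicate 2 it was 0.15 and passed (0.0451). This gene had the widest gap between libraries of a group among the members, 0.10 on the log2 scale in N2, against at most 0.038 for cpr-1, cpr-4 and cpr-6.

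**Figure D2:**
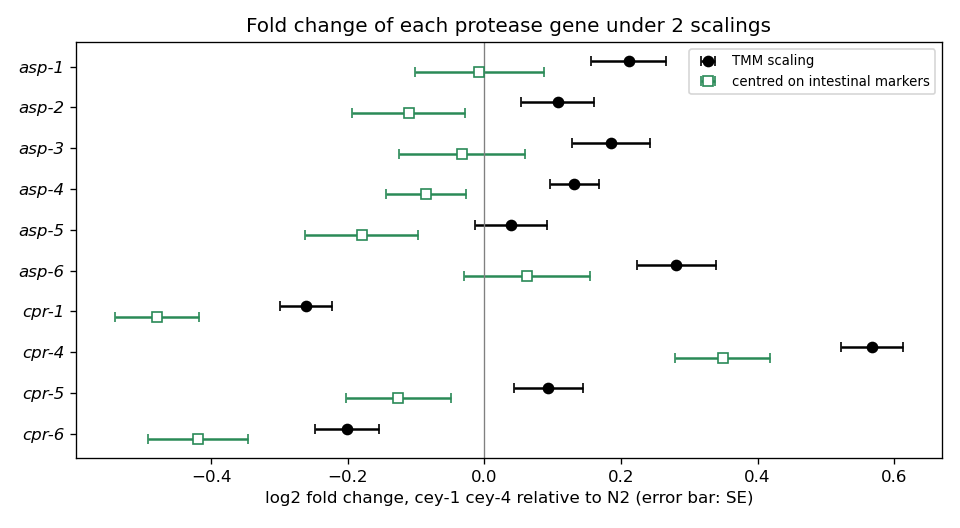
Log2 fold change of each member, mutant relative to N2, with SE as error bars. Filled circles use TMM scaling and open squares centre the libraries on intestinal marker genes. cpr-4, cpr-1 and cpr-6 keep their side of 0 under both scalings and asp-6 stays above 0, while the other 6 members cross it.

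Ratios of counts within a library do not depend on how libraries are scaled, although their size also reflects the lengths of the messages. The ratio of cpr-4 to cpr-1 counts was 0.979 and 1.02 in N2 and 1.77 and 1.78 in the mutant, a log2 difference of 0.83 (SE 0.032). The ratio of cpr-4 to cpr-6 was 0.68 and 0.696 in N2 and 1.17 and 1.18 in the mutant. Both ratios were thus higher in both mutant libraries, without overlap. The ratio of cpr-1 to cpr-6, the pair that fell, was 0.695 and 0.681 in N2 and 0.66 and 0.66 in the mutant, a smaller log2 difference of -0.06 (SE 0.014), also without overlap. The pairs were picked with their values in view, and with 2 libraries against 2 a two-sided exact permutation test cannot give a p below 0.333.

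The make-up of the counts on the 4 cathepsin B members therefore differed between genotypes while their sum moved little. Other cathepsin B genes, such as cpr-9, are not part of these shares. cpr-4 held 20.0% and 20.0% of the counts on the 4 cathepsin B members in N2 and 28.6% and 28.1% in the mutant. cpr-1 held 20.4% and 19.6% in N2 and 16.2% and 15.8% in the mutant, and cpr-6 went from 29.4% and 28.8% to 24.5% and 23.9%. cpr-5 held 30.1% to 32.3% in the 4 libraries, with overlapping groups. Together the 4 genes held 0.254% and 0.26% of the N2 library totals, and 0.269% and 0.27% of the mutant ones.

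**Figure D3:**
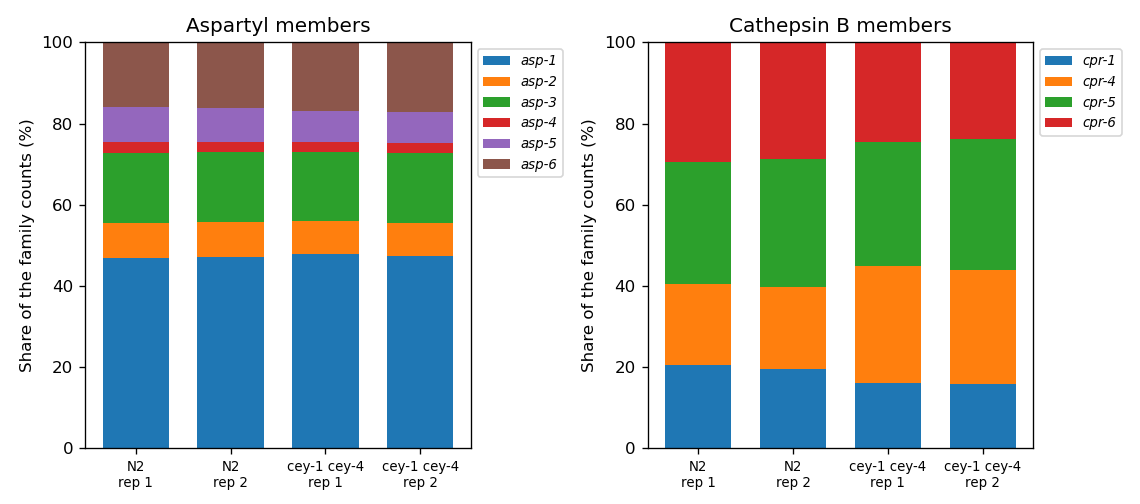
Share of each member in the summed counts of the listed members of its family, in percent, for each of the 4 libraries. Other genes of the families are left out. In the cathepsin B panel the cpr-4 segment widens in both mutant libraries from 20.0% to 28.1% or more, and in the aspartyl panel the segments change by less than 2 percentage points.

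The aspartyl group had more even changes. asp-1 (WBGene00000214), an aspartyl protease gene expressed in the intestine, had 5833 and 6010 CPM in N2 and 6833 and 6880 CPM in the mutant. The mutant libraries were both higher, and their values lay closer together than those of N2. The log2FC was 0.21 (SE 0.055, edgeR adjusted p = 0.00146), and it did not pass without mutant replicate 1 or 2 (0.0513 and 0.0665). Of the counts on the 6 aspartyl members, asp-1 made up 46.9% and 47.2% in N2 and 48.0% and 47.3% in the mutant.

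asp-3 and asp-4 encode cathepsin D-like lysosomal proteases that are needed for necrotic death of neurons in the worm. asp-3 (WBGene00000216) had 2155 and 2175 CPM in N2 and 2422 and 2503 CPM in the mutant, a log2FC of 0.19 (SE 0.057, edgeR adjusted p = 0.00787). asp-4 (WBGene00000217) had 319.5 and 311 CPM in N2 and 341 and 349.6 CPM in the mutant, a log2FC of 0.13 (SE 0.036, edgeR adjusted p = 0.00269). Both genes were higher in both mutant libraries than in either N2 library, by more than the gap within a group. Without mutant replicate 2 neither passed (edgeR adjusted p = 0.129 for asp-3 and 0.126 for asp-4), and asp-4 did not pass in DESeq2 (adjusted p = 0.0678). The ratio of asp-1 to asp-3 counts was 2.71 and 2.76 in N2 and 2.82 and 2.75 in the mutant, so it overlapped between the groups.

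asp-6 (WBGene00000219) had the largest rise of the aspartyl members, with 1974 and 2047 CPM in N2 and 2394 and 2491 CPM in the mutant. All mutant values exceeded all N2 values by several times the gap within a group. The log2FC was 0.28 (SE 0.058, edgeR adjusted p = 5.74e-05), and 44 of the 517 abundant genes had a larger one. It passed with each library left out in turn, and did not pass when libraries were centred on intestinal markers (log2FC 0.06, edgeR adjusted p = 0.614).

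asp-5 (WBGene00000218) lies beside asp-6 in the reference gene order, with asp-12, also of the aspartyl family, between them. asp-5 had 1081 and 1086 CPM in N2 and 1106 and 1120 CPM in the mutant. The groups did not overlap, but the log2FC of 0.04 (SE 0.053) did not pass (edgeR adjusted p = 0.626). asp-12 had 50.2 ± 4.67 and 51.9 ± 1.14 CPM and did not pass either (log2FC 0.05, edgeR adjusted p = 0.574). The ratio of asp-6 to asp-5 counts was 1.83 and 1.88 in N2 and 2.17 and 2.23 in the mutant, higher in both mutant libraries. asp-2 (WBGene00000215) had 1080 and 1099 CPM in N2 and 1140 and 1208 CPM in the mutant. Its groups did not overlap, and its log2FC of 0.11 (SE 0.054) did not pass (edgeR adjusted p = 0.118), though it passed in 5 of the alternatives, among them limma-voom (adjusted p = 0.0265). With single libraries left out it did not pass, and its log2FC was 0.06 without mutant replicate 2 and 0.15 without mutant replicate 1. The 6 aspartyl genes together held 1.24% and 1.27% of the N2 library totals, and 1.43% and 1.45% of the mutant ones.

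Markers of different tissues moved in different directions. Of 18 intestinal markers, 11 rose and 1 fell, and 6 missed the threshold, the median log2FC being 0.19, beside 0.16 for the aspartyl members and -0.05 for the cathepsin B members. None of the 18 was at 0, and their summed level, most of it from the yolk protein genes vit-2 and vit-6, was 58730.5 and 52015 CPM in N2 and 64037 and 63233 CPM in the mutant. Of 7 oocyte markers all 7 fell, and their summed level was 3152 and 3187 CPM in N2 and 1378 and 1354 CPM in the mutant. Of 7 body wall muscle markers 6 rose and 1 did not pass, all 6 sperm markers tested rose, and of 6 hypodermal markers 2 rose and 4 did not pass. Of 7 neuronal markers 2 rose and 2 fell. Centring the libraries on the intestinal markers shifted the fold change of the median gene by -0.22, and 6.89% of all genes then rose and 40% fell. The centring used the mean log level of the 18 markers, each with equal weight. Their log2FC ran from -0.13 (pho-1) to 0.93 (ifo-1), so values near 0 after centring depend on the markers chosen. Relative to the intestinal markers, the aspartyl members had log2FC values of -0.18 (asp-5) to 0.06 (asp-6) with none past the test, while cpr-4 was higher and cpr-1 and cpr-6 lower. Their SE was then larger, 0.059 for asp-4 and 0.095 for asp-1, against 0.036 and 0.055 under TMM scaling. With vit genes left out of the markers, asp-5 passed as lower (edgeR adjusted p = 0.0404).

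The lists that follow are to be read beside all tested genes, of which 17.4% rose and 16.6% fell. Under intestinal centring 6.89% of all tested genes rose and 40% fell. Of the 11 other aspartyl protease genes, 5 were tested. asp-17 fell, from 46.2 ± 0.66 to 22.6 ± 0.13 CPM (log2FC -1.03, SE 0.061, edgeR adjusted p = 2.29e-24). asp-14 fell by 0.22 on the log2 scale (edgeR adjusted p = 1.19e-06), and asp-13 rose by 0.20 (edgeR adjusted p = 3.52e-06) but was at -0.01 under intestinal centring. asp-8, chosen after its values were seen, rose by 0.22 and was at 0.00 under intestinal centring. In that list of 5, 2 rose and 2 fell, 1 rose without mutant replicate 2, and 0 rose and 3 fell under intestinal centring. asp-15 and asp-16, the neighbours of asp-1, were among the 6 not tested and had at most 0.18 CPM in any library. Among 4 other cathepsin B genes, cpr-8, which lies next to cpr-5, rose from 16.8 ± 0.67 to 23.9 ± 1.03 CPM (log2FC 0.51, SE 0.072, edgeR adjusted p = 2.21e-08; 0.29 under intestinal centring). cpr-9 had 1046 ± 29.6 and 978 ± 40.1 CPM and a log2FC of -0.10, short of the threshold (edgeR adjusted p = 0.157), but under intestinal centring it fell, by 0.31 (edgeR adjusted p = 4.02e-04). Which of these genes are alike enough in sequence to share footprint reads was not examined here, and the sources used here do not give how such reads were counted.

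Of 5 other cysteine cathepsin and legumain genes 2 rose and 1 fell, with a median of -0.02. Only 1 rose without N2 replicate 1, N2 replicate 2 or mutant replicate 1, and 1 rose and 3 fell under intestinal centring, with a median of -0.24. cpl-1, the cathepsin L gene needed for yolk processing in the embryo, had 2870 ± 36.1 and 2828 ± 21.9 CPM and a log2FC of -0.02, short of the threshold (edgeR adjusted p = 0.814), and fell by 0.24 under intestinal centring (edgeR adjusted p = 0.0235). The cathepsin Z genes differed from each other: cpz-2 rose from 93.7 ± 0.73 to 129 ± 0.20 CPM (log2FC 0.46, SE 0.042, edgeR adjusted p = 4.89e-15), and cpz-1, which acts in moulting, fell from 343 ± 8.78 to 300.4 ± 6.99 CPM (-0.19, SE 0.037, edgeR adjusted p = 1.30e-05). Of 6 serine peptidase genes of the lysosome, 3 rose and none fell, among them the carboxypeptidase gene ctsa-2 (0.15) and the prolyl carboxypeptidase-like genes pcp-2 (0.27) and pcp-4 (0.26), whereas 0 rose and 2 fell under intestinal centring, and 2 fell without N2 replicate 2. pcp-3 had a log2FC of -0.04 that did not pass.

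Of 8 inhibitor genes of such proteases 1 rose and 7 did not pass. Without N2 replicate 2, 3 rose, and under intestinal centring 1 rose and 4 fell. The cystatin genes cpi-1 and cpi-2, which encode inhibitors of cysteine proteases, had 77.2 ± 4.03 and 91.6 ± 8.38 CPM in N2 and 82.8 ± 2.80 and 94.3 ± 6.66 CPM in the mutant (edgeR adjusted p = 0.0854 and 0.632). Under intestinal centring cpi-2 fell by 0.18 (edgeR adjusted p = 0.0124). The serpin gene srp-3 rose from 2.76 ± 0.42 to 6.40 ± 0.27 CPM (log2FC 1.23, SE 0.146, edgeR adjusted p = 9.53e-11), and srp-7 had a log2FC of 0.05 that did not pass but fell by 0.17 under intestinal centring (edgeR adjusted p = 0.0156). Among 9 calpain genes tested, which encode cytosolic cysteine proteases, 3 rose and none fell, while 0 rose and 3 fell under intestinal centring. Without mutant replicate 1, 1 calpain gene rose, without N2 replicate 2, 1 fell, and in DESeq2 0 rose. clp-1 rose by 0.16 and clp-4 by 0.29, and clp-7 was at -0.04 without passing.

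**Figure D4:**
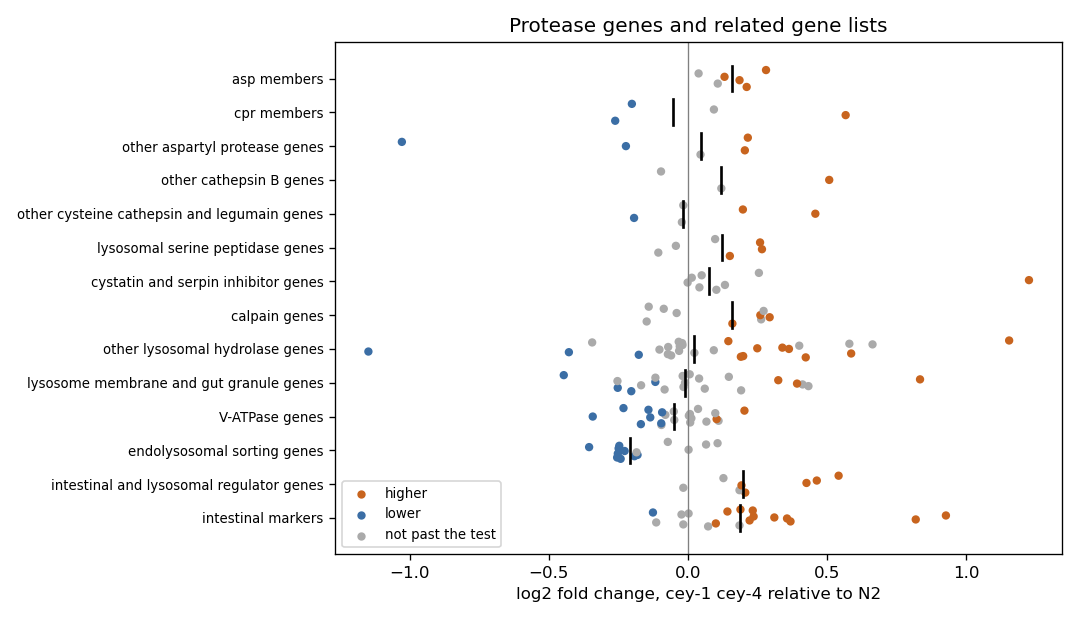
Log2 fold change of each tested gene of the 2 protease groups, the related lists and the intestinal markers, mutant relative to N2 under TMM scaling. Points are genes, orange where higher, blue where lower and grey where the test was not passed, and black bars are list medians. The endolysosomal sorting genes have the lowest median, -0.21, with 9 of 14 lower and none higher.

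Of 27 other lysosomal hydrolase genes tested, 9 rose and 3 fell, 15 missed the threshold and the median was 0.02, and 3 rose and 11 fell under intestinal centring. DESeq2 called 5 of them higher. The acid ceramidase gene asah-2 rose from 35.5 ± 1.12 to 53.4 ± 3.38 CPM (log2FC 0.59, SE 0.056, edgeR adjusted p = 2.36e-14). The acid alpha-glucosidase genes aagr-1 and aagr-3 rose by 0.42 and 0.20, and the lysosomal lipase gene lipl-5 had a log2FC of -0.02 that did not pass. Of 21 genes of the lysosome membrane and gut granules, 3 rose and 4 fell, and 2 rose and 9 fell under intestinal centring. Among all tested genes 17.4% rose and 16.6% fell, and under intestinal centring 40% fell. The falls under centring in the hydrolase list and the membrane and gut granule list lie near that share. In the membrane and gut granule list only 1 gene fell in DESeq2 or with upper-quartile factors. The cholesterol transport gene ncr-2 rose from 3.79 ± 0.08 to 6.76 ± 0.14 CPM and the gut granule gene glo-4 from 22.9 ± 0.57 to 29.9 ± 1.59 CPM. The LAMP gene lmp-1 fell by 0.12 (edgeR adjusted p = 0.0121), and the transporter gene pgp-2 did not pass. Of 21 V-ATPase genes, which encode the pump that acidifies the lysosome, 2 rose and 7 fell, with a median of -0.05, and 0 rose and 16 fell under intestinal centring, with a median of -0.26. The number that fell was 4 without N2 replicate 1 or mutant replicate 1, and 3 without mutant replicate 2, in DESeq2 or with upper-quartile factors. The number that rose was 1 without N2 replicate 2 or either mutant replicate. vha-6, the subunit of the intestinal apical membrane, rose by 0.20 (-0.01 under intestinal centring), vha-9 fell by 0.23, and vha-12 and vha-13 did not pass.

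Of 14 genes of endolysosomal sorting, whose products carry enzymes and membrane between compartments, 9 fell, 0 rose and 5 did not pass, with a median of -0.21. DESeq2 called 5 lower, no gene of the list passed the test against a fold change of 1.2, and 12 fell under intestinal centring, with a median of -0.43. Without mutant replicate 1, 6 fell. The retromer gene vps-35 fell from 81.4 ± 1.32 to 68.5 ± 1.52 CPM (log2FC -0.25, SE 0.047, edgeR adjusted p = 1.56e-05). rab-5, a small GTPase of early endosomes, fell by 0.24 and rme-8, a co-chaperone of endosomes, by 0.19. Among 8 regulators of intestinal and lysosomal genes, 5 rose and none fell, and 2 rose and none fell under intestinal centring, as in DESeq2. Of this list elt-2 and elt-7 are themselves among the intestinal markers that set the centring. zip-2, a bZIP factor of the response to pathogens, rose from 34.6 ± 0.69 to 50.4 ± 1.03 CPM (log2FC 0.54, SE 0.055, edgeR adjusted p = 3.75e-13). mxl-3, a Max-like repressor of lysosomal lipases, rose by 0.43 and the FOXO gene daf-16 by 0.21, the latter being at -0.0092 under intestinal centring.

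The genes whose pattern over the 4 libraries lay nearest to that of the most counted member of each family were found among 1262 genes with a mean of at least 100 CPM. For asp-1 they were fln-2, lys-8 and F17E9.5, at distances of 0.012 to 0.02 on the log2 scale and with log2FC values of 0.20 to 0.22. For cpr-5 they were lec-1, col-92 and wars-1, at distances of 0.011 to 0.02 and with log2FC values of 0.08 to 0.11. Distances over 4 libraries describe these libraries only.

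Counting error was small beside these differences. The members had 7771 to 191951 counts per library, which gives a counting error of 0.228% to 1.13%. For the members, libraries of a group differed by up to 0.10 on the log2 scale. Over all tested genes with a mean of at least 100 CPM, the log2 difference between the libraries of a group had an SD of 0.10 in N2 and 0.24 in the mutant.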

How the data were processed

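Ribosome-protected fragments from whole young adult worms were sequenced in 4 libraries. The authors deposited whole-number counts per gene, and log2 values that equal, by recomputation from the counts, the log2 of each count after scaling to the lowest library total and adding 8. Bowtie was used per the submitters' processing notes. Its version, the genome build, the annotation and the counting rule are not given in the sources used. Of 20182 features, 3 that repeat other genes under a sequence name were left out.

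The main test was the quasi-likelihood F test of edgeR 4.0.16 under R 4.3.3, two-sided, on the raw counts. Genes were kept by filterByExpr (minimum count 10), libraries were scaled by TMM, the fit was robust and genotype was its single term. A gene was called at a Benjamini-Hochberg adjusted p under 0.05 over all tested genes. The SE is the log2 fold change divided by the square root of F. The script was checked on simulated data, with 50 changed genes of any level at each fold change. The test recovered 32% of 1.2-fold, 66% of 1.5-fold, 84% of 2-fold and 98% of 4-fold changes, so small changes can be missed. Alternatives used DESeq2 1.42.0, limma 3.58.1, other scalings and filters, a replicate block and each library left out. Members and lists were chosen with earlier results of these data known. All members are named, and from each related list the 2 genes of lowest p and the 2 of highest mean CPM. Levels of different genes were not ranked, as no coding lengths were used here. Reference gene order (WBcel235) served only for names and neighbours.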

Additional observations from a re-analysis of the deposited data

How the results depend on the processing

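Over 15 alternatives, cpr-4, cpr-1 and cpr-6 kept their direction, and cpr-4 passed in each. Centring on intestinal markers, with or without vit genes (the latter, like the test against a fold change of 1.2, chosen after seeing the data), gave asp-1 -0.0072 and -0.0074, asp-2 -0.111 and -0.111, asp-3 -0.0325 and -0.0328, asp-4 -0.0855 and -0.0859, asp-5 -0.18 and -0.18 (passing without vit genes, adjusted p = 0.0404), asp-6 0.0622 and 0.062 and cpr-5 -0.126 and -0.126. The members called higher were then 1 and 1, and the genes 901 and 923 higher and 5239 and 5331 lower. With all markers the median log2 fold change shifted by -0.22. The SE of each member was also larger, for asp-1 0.095 against 0.055 in the main test. Against a fold change of 1.2, 1 member rose and 0 fell in edgeR (2 fell in the main test and in DESeq2), with 809 genes higher and 450 lower. asp-1 (0.21), asp-3 (0.19), asp-4 (0.13), asp-6 (0.28), cpr-1 (-0.26) and cpr-6 (-0.20) did not pass that test. DESeq2 called 899 genes higher and 1152 lower and did not call asp-4 (0.119); the cause was not tested. asp-2 passed with the replicate block (0.107), limma-voom (0.107), the deposited log2 values in limma (0.11), upper-quartile factors (0.154) and a minimum of 50 counts (0.118). cpr-5 passed with upper-quartile factors (0.14) and the replicate block (0.094).

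With single libraries left out, where the lone library of a group is assumed to vary like the other group, log2 fold changes were 0.188 to 0.232 for asp-1, 0.0642 to 0.148 for asp-2, 0.162 to 0.207 for asp-3, 0.111 to 0.149 for asp-4 and 0.0401 to 0.145 for cpr-5, and 2 to 6 members were called higher. The lowest count came without mutant replicate 2, when cpr-4 and asp-6 passed. The replicate numbers gave only 2 pairs, with a correlation of 0.298 between deviations of same-numbered libraries, and the block moved the genes called to 2431 higher and 2351 lower. Of 330 counts of related lists under alternatives, 84 moved, either by over 1.5 times or to or from 0. The shares of all counts on the aspartyl and cathepsin B members moved when vit counts were left out, to 1.35% and 0.277% in N2 and 1.57% and 0.293% in the mutant. The order of members by footprint density was not run, since coding lengths were not used here. With 2 libraries a group, changes under 1.2-fold rest on the spread of few libraries.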
